A study of Mus musculus with 7 samples.

Results

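The 50 genes described here encode the machinery by which nerve terminals release neurotransmitter from synaptic vesicles and take the vesicle membrane back. They are SNARE proteins and their regulators (9 genes), calcium sensors (8) and active zone scaffolds (10). The rest are priming factors (5), vesicle proteins (14) and endocytosis proteins (4). The calcium sensors are synaptotagmin and Doc2 genes grouped by family, whether or not each protein binds calcium. The 50 genes were taken by gene symbol from a list of known presynaptic genes, which was chosen with earlier results of these data known. All 50 were found among the 25467 genes of the count table. RNA had been sequenced from the medial prefrontal cortex of 7 mice, 4 treated with rhTSP1, recombinant human thrombospondin-1 (TSP1 below), and 3 given PBS, phosphate-buffered saline. The sources used here give no strain, sex, age, dose, route or time of dissection, and the labels name no other allele, agent or batch. The labels name the tissue only as brain and as mPFC in the titles. The comparison asks what TSP1, a matrix protein that astrocytes secrete and that helps excitatory synapses to form, does to transcript levels in this cortex.

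A vesicle is docked at the active zone, a protein scaffold under the presynaptic membrane, and primed there by Unc13 and CAPS proteins. SNARE proteins on the vesicle and the plasma membrane then form a tight bundle, which synaptotagmins couple to the entry of calcium. After fusion, NSF and its SNAP cofactors take the SNARE bundle apart, and dynamin, amphiphysin, endophilin and synaptojanin recover the vesicle membrane. In cerebral cortex most of these genes are expressed by nearly all neurons, whereas a few members mark particular neuron types.

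All 50 genes passed the filter on low counts, none passed the adjustment over all genes, and most were measured closely enough to bound the difference tightly. Levels are given as CPM, counts scaled to a common library size with TMM, and differences as the log2 fold change of TSP1 over PBS with its standard error (SE). In edgeR's quasi-likelihood test, 0 of the 50 members and 0 of 17211 genes tested (0%) passed at a false discovery rate (FDR, Benjamini-Hochberg) of 0.05, and the lowest FDR among members was 0.171. Before adjustment, 4 members (8%) had a p under 0.05, against 9.65% of all genes. Of the 4, 3 were higher with TSP1 (4.21% of all genes) and 1 lower (5.44%). Over the same 17211 genes, DESeq2 gave 7 such members (7.7% of all genes), limma-voom 6 (9.64%) and edgeR's exact test 4 (9.12%). At an adjusted p under 0.05, DESeq2 (0.505% of all genes) and the exact test (0.604%) each called 1 member, Cadps2, and limma-voom called none (0%). The 95% interval lay inside a 1.25-fold change in either direction for 38 members (76%), against 43.2% of all genes and 77% of the 8842 genes within the members' range of mean CPM. For 47 members it lay inside a 1.5-fold change, against 69.1% of all genes, and the other 3 were Syt2, Doc2b and Sv2c.

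The fitted value was above 0 for 36 members (72%) and below 0 for 14, with a median log2 fold change of 0.05, against 51.1% and a median of 0.00 over all genes. That share moved with exon length and GC content. It was 20 of the 25 members with the longer exons and 16 of the 25 with the shorter, and 22 of the 25 GC-poorer against 14 of the 25 GC-richer members. Among all genes with exons longer than the members' median 69.6% had fitted values above 0, against 47.1% of the others. The part of length and GC content in the members' share was not tested, and with each library's trend with both removed it was again 36 of 50, with a median of 0.04. Without PBS replicate 1 it was 28 of 50, with a median of 0.02.

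**Figure D1:**
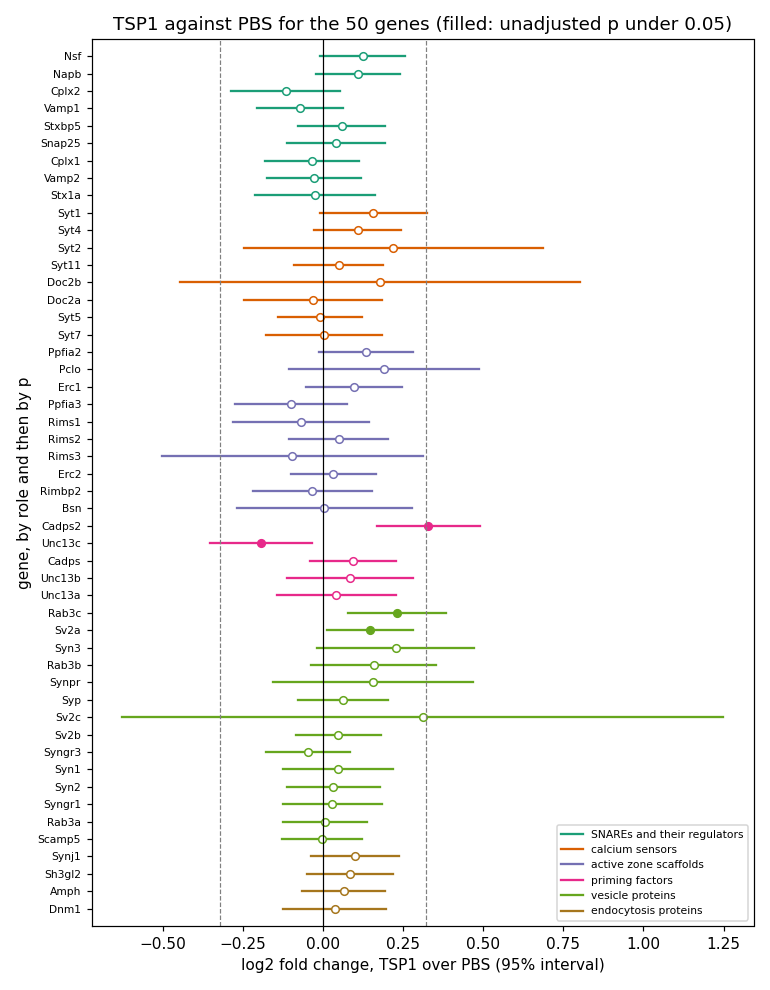
Log2 fold change of TSP1 over PBS (x axis) for the 50 genes (y axis), in edgeR's quasi-likelihood fit, coloured by role. Lines are 95% intervals, filled points have an unadjusted p under 0.05, and dashed lines mark a 1.25-fold change, inside which the intervals of 38 genes lie.

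The 4 members with an unadjusted p under 0.05 were Cadps2, Rab3c and Sv2a, higher with TSP1, and Unc13c, lower. Cadps2 encodes CAPS2, a priming factor best known for dense-core vesicles, and lies on chromosome 6 from 23262773 to 23839421 (GRCm38). It had 75.3, 69.8, 64.6 and 78.3 CPM in TSP1 replicates 1 to 4 and 58.7, 54.4 and 58.7 CPM in PBS replicates 1 to 3. Every TSP1 library was above every PBS library, and the group means were 72 ± 6.07 CPM (SD, n = 4) and 57.3 ± 2.5 CPM (SD, n = 3). The log2 fold change was 0.33 (SE 0.075, 95% interval 0.17 to 0.49, edgeR FDR = 0.171). DESeq2 and edgeR's exact test put Cadps2 past the threshold (adjusted p = 0.0321 and 0.0358), limma-voom did not (0.25), and over all alternatives it ranged from 0.0321 to 0.485.

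Rab3c, one of the small GTPases that tether vesicles through RIM proteins (chromosome 13, 110054187 to 110280996), had 429.6, 385, 407 and 365 CPM with TSP1 and 319.8, 341 and 352 CPM with PBS. The lowest TSP1 library was above the highest PBS library, by a narrow margin. Its log2 fold change was 0.23 (SE 0.071, 95% interval 0.08 to 0.38, edgeR FDR = 0.313), and 0.16 with the length and GC trend removed. Sv2a, a vesicle membrane glycoprotein and the binding site of the antiepileptic drug levetiracetam (chromosome 3, 96181151 to 96195521), had 458, 433, 438 and 465 CPM with TSP1 and 391, 418 and 407 CPM with PBS. The groups again did not overlap, with a log2 fold change of 0.15 (SE 0.062, edgeR FDR = 0.476).

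Unc13c encodes Munc13-3, a priming factor known mainly from cerebellum (chromosome 9, 73479422 to 73968966). It had 33.2, 31, 31.2 and 33.5 CPM with TSP1 and 34, 37.9 and 38.7 CPM with PBS. All TSP1 libraries were below all PBS libraries, although TSP1 replicate 4 and PBS replicate 1 lay close together. The log2 fold change was -0.19 (SE 0.074, 95% interval -0.35 to -0.03, edgeR FDR = 0.438).

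The promoter windows of these 4 genes are shown because they are the members with the smallest p and do not share a direction. Each runs 5′ to 3′ over 300 bases, from 250 before to 50 after the start in RefSeq (GRCm38.p6), and capitals mark matches to the GC box GGGCGG on either strand. The end of the window lay in a GENCODE M21 transcript of its gene for Cadps2 and Sv2a, but not for Rab3c and Unc13c. The Unc13c window lies wholly before the start of the gene in that annotation.
Cadps2 (chr6:23839372-23839671, minus strand): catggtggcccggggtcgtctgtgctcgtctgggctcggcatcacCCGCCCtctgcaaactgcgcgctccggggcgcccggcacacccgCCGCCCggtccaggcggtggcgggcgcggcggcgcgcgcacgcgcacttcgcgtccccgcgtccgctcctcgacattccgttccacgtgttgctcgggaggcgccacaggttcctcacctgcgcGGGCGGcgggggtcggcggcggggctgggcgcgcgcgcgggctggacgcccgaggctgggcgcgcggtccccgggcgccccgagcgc
Rab3c (chr13:110280157-110280456, minus strand): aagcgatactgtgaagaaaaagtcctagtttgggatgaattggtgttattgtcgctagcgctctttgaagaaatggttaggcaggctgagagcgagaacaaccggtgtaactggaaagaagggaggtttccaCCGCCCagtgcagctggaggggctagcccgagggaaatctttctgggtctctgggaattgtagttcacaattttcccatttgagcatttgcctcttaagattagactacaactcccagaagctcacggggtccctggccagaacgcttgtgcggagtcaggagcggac
Sv2a (chr3:96180977-96181276, plus strand): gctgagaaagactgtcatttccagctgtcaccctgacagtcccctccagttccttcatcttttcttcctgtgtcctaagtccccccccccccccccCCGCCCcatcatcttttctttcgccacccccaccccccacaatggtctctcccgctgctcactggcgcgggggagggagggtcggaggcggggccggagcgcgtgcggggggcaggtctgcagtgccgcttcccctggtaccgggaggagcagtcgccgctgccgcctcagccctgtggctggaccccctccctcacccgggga
Unc13c (chr9:73968988-73969287, minus strand): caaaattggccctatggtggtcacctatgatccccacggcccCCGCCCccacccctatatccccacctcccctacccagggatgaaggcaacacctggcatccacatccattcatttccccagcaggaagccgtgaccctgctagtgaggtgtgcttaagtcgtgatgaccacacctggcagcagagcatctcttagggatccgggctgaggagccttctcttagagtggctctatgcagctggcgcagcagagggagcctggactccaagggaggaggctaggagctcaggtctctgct
The Cadps2 window was 79.7% G and C with 54 CpG sites, that of Sv2a 68% with 17, that of Unc13c 59.3% with 6 and that of Rab3c 50.7% with 11. Cadps2 thus had the densest and Unc13c the sparsest CpG sites of the 4. Cadps2 had 3 GC boxes and each of the others 1, so the match did not separate the gene that was lower from those that were higher. RefSeq windows were at hand for 40 of the 50 members (49 windows), of which 33 (67.3%) held the GC box, against 35.7% of all 32851 windows. The members' windows had a median of 62.3% G and C and 20 CpG sites, against 52.7% and 7 over all windows. Neither the cAMP response element TGACGTCA nor the TATA box TATAAA was found in these 4 windows. Searched on both strands, they were in 2 (4.08%) and 3 (6.12%) of the members' windows and in 1.79% and 13.6% of all windows.

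Including these 4, the groups did not overlap for 6 members (12%), against 10.1% of all genes. Of the 6, 5 were higher with TSP1 (4.83% of all genes) and 1 lower (5.26%). The other two were Nsf and Napb, both of which act in SNARE disassembly. Nsf, the ATPase that pulls SNARE bundles apart (chromosome 11, 103821782 to 103954056), had 736, 764, 750.1 and 767 CPM with TSP1 and 693, 682 and 701 CPM with PBS. Its libraries spread less within groups than those of any other member (SD of log2 CPM 0.024), and the log2 fold change was 0.12 (SE 0.061, edgeR FDR = 0.548). Napb, the neuronal SNAP cofactor of NSF (chromosome 2, 148693985 to 148732467), had 495, 488, 504 and 490.5 CPM with TSP1 and 454, 443 and 479 CPM with PBS (log2 fold change 0.11, SE 0.061, edgeR FDR = 0.611). Both differences were under 1.1-fold in the fit. With the length and GC trend removed, the log2 fold changes of Nsf and Napb were 0.09 and 0.06.

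**Figure D2:**
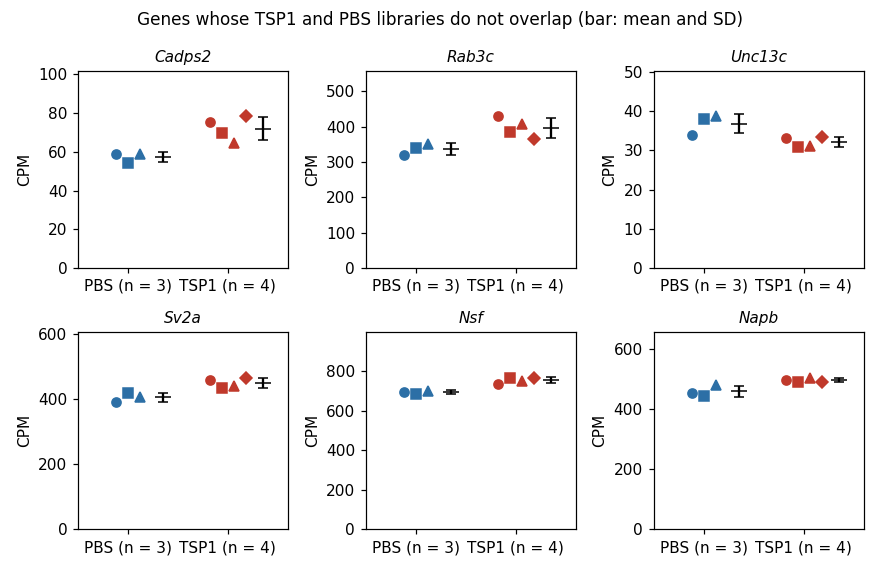
CPM (y axis, from 0) in the PBS and TSP1 libraries for the 6 genes whose groups do not overlap. Points are libraries (circle, square, triangle and diamond for replicates 1 to 4) and bars the mean and SD, and Unc13c is the only one of the 6 with lower values in TSP1.

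Among the SNAREs and their regulators, 4 of 9 genes had fitted values above 0 and 5 below (median -0.02), and all 9 intervals lay inside a 1.25-fold change. Snap25, the lipid-anchored SNARE of the plasma membrane (chromosome 2, 136713453 to 136782428), had the highest level per length of all 50 genes, 292 CPM per kb of exon, above 99.7% of the genes tested. It had 2072, 1974, 1990.4 and 1995 CPM with TSP1 and 1820.1, 1996 and 2036 CPM with PBS. The groups overlapped, PBS replicate 1 stood lowest, and the log2 fold change was 0.04 (SE 0.071, 95% interval -0.11 to 0.19, edgeR FDR = 0.902). Vamp2, the vesicle SNARE of forebrain synapses, had means of 913 ± 51.2 CPM over the 4 TSP1 libraries and 931 ± 15.7 CPM over the 3 PBS libraries (SD), and its fitted difference was -0.03 (95% interval -0.17 to 0.12, edgeR FDR = 0.938). Stx1a, the syntaxin of the plasma membrane, was at 317 ± 27.3 and 323 ± 37.2 CPM, a log2 fold change of -0.02 (95% interval -0.21 to 0.16, edgeR FDR = 0.957). The 3 SNAREs that form the core of the bundle thus had close means in the groups, with intervals that exclude a 1.25-fold change. Cplx2, a complexin that clamps and then promotes fusion (chromosome 13, 54371349 to 54383917), had 1039, 1102, 1038 and 976 CPM with TSP1 and 1006, 1139 and 1233 CPM with PBS. Its groups overlapped and its log2 fold change was -0.12 (SE 0.079, edgeR FDR = 0.687), -0.19 without PBS replicate 1 and -0.04 without PBS replicate 3. Vamp1 (84.1 ± 3.75 against 88.3 ± 3.75 CPM), Cplx1 (427 ± 18.8 against 438 ± 29.3 CPM) and Stxbp5, the release inhibitor tomosyn (146 ± 3.95 against 140.4 ± 9.02 CPM), overlapped as well.

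In the calcium sensors, 6 of 8 genes had fitted values above 0 (median 0.08), and the groups overlapped for all 8. Syt1, the fast calcium sensor of forebrain release (chromosome 10, 108497650 to 109010982), had 1453, 1365, 1397 and 1431 CPM with TSP1 and 1126, 1369 and 1300.0 CPM with PBS. Only PBS replicate 2 reached the range of the TSP1 libraries, and PBS replicate 1 was the lowest. The log2 fold change was 0.16 (SE 0.077, edgeR FDR = 0.544), and 0.08 without PBS replicate 1. Syt4, a synaptotagmin that binds calcium weakly, had 159.6, 152, 165 and 148 CPM with TSP1 and 138, 147 and 150.0 CPM with PBS (log2 fold change 0.11, SE 0.063, edgeR FDR = 0.622). Syt2, the fast sensor of parvalbumin interneurons and of hindbrain (chromosome 1, 134646677 to 134762593), was the least abundant member by CPM. It had 19.5, 11.6, 14.7 and 20.9 CPM with TSP1 and 11.7, 15 and 16.3 CPM with PBS, and its within-group SD of 0.34 log2 units was far above the members' median of 0.087. Its log2 fold change was 0.22 (SE 0.21, edgeR FDR = 0.784). It was 0.09 without either TSP1 replicate 4 or PBS replicate 1, -0.04 without both, and 0.37 without TSP1 replicate 2. Of the interneuron markers, Pvalb itself was at 13.9 CPM with TSP1 and 18.1 CPM with PBS in the mean (log2 fold change -0.38, edgeR FDR = 0.365), and its part in the Syt2 values was not tested. Doc2b, a high-affinity sensor linked to spontaneous release, had 20.4 to 28.2 CPM in the TSP1 libraries and 27.2, 12.8 and 25.1 CPM in the PBS libraries. PBS replicate 2 alone was low, and without it the log2 fold change of 0.18 (SE 0.26, edgeR FDR = 0.885) was -0.08. Syt11, Syt7, Syt5 and Doc2a had means of 754, 533, 163 and 34.8 CPM with TSP1 and 729, 531, 164 and 35.5 CPM with PBS.

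No active zone scaffold had an unadjusted p under 0.05, the groups overlapped for all 10, and the median log2 fold change was 0.02. Bsn encodes bassoon, a very large scaffold that, with piccolo, holds vesicles at the active zone (chromosome 9, 108096022 to 108190384). It had 943, 842, 734 and 679 CPM with TSP1 and 665, 876 and 849 CPM with PBS, so the spread inside each group was as large as any difference between them (log2 fold change 0.01, SE 0.12, edgeR FDR = 0.995). Pclo, the gene of piccolo (chromosome 5, 14514918 to 14863459), had 542, 415, 385 and 402 CPM with TSP1 and 322, 421 and 404 CPM with PBS. TSP1 replicate 1 was the highest and PBS replicate 1 the lowest, and the log2 fold change of 0.19 (SE 0.13, edgeR FDR = 0.698) was 0.07 and 0.08 without the one or the other, and 0.09 with the length and GC trend removed. Ppfia2, a liprin-alpha that organises the scaffold (chromosome 10, 106470339 to 106935952), had 91.6, 104, 102 and 91.7 CPM with TSP1 and 85.6, 88 and 92.7 CPM with PBS (log2 fold change 0.13, SE 0.068, edgeR FDR = 0.562). Erc1, an ELKS scaffold found in many tissues (chromosome 6, 119570796 to 119848167), had 58, 60.9, 57.2 and 51.5 CPM with TSP1 and 52, 54.5 and 53.1 CPM with PBS (log2 fold change 0.10, SE 0.07, edgeR FDR = 0.698). For Erc1 only TSP1 replicate 4 lay as low as the PBS libraries. With the length and GC trend removed, the values of Ppfia2 and Erc1 were 0.07 and 0.03.

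The scaffolds had the largest median spread within groups of the 6 roles. Their median within-group SD of log2 CPM was 0.136, against 0.087 over the 50 members, 0.0993 over genes within the members' range of mean CPM, and 0.0603 for the 4 endocytosis genes. Rims3, a short RIM isoform gene, had 224, 205, 203 and 162 CPM with TSP1 and 159.97, 255 and 221 CPM with PBS (log2 fold change -0.09, SE 0.17, edgeR FDR = 0.91). Rims1, which encodes the RIM that tethers calcium channels and vesicles, had 385, 371, 374 and 309 CPM with TSP1 and 318, 412 and 402 CPM with PBS (log2 fold change -0.07, SE 0.098, edgeR FDR = 0.876). In both genes TSP1 replicate 4 and PBS replicate 1 stood below the other libraries, whichever their treatment. These libraries held the lowest value of 9 of the 10 scaffolds, 4 in TSP1 replicate 4 and 5 in PBS replicate 1.

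The mean of the scaffold list, as log2 CPM minus the mean of the 7 libraries, was -0.13 in TSP1 replicate 4 and -0.17 in PBS replicate 1, against -0.01 to 0.14 in the other TSP1 libraries and 0.08 and 0.05 in PBS replicates 2 and 3. Markers of cortical excitatory neurons (9 of 9 tested) were low in the same libraries, at -0.12 in TSP1 replicate 4 and -0.15 in PBS replicate 1, against -0.03 to 0.16 in the others. The markers did not move as one: each of these libraries held the lowest value of 3 of the 9, and in TSP1 replicate 4 Camk2a was at 3147 CPM, below the 4391 to 5088 CPM of the other 6 libraries, while Neurod6 was at 82.1 CPM, above the 68.3 to 72.4 CPM of the other TSP1 libraries. Their summed level was 4968 to 7062 CPM with TSP1 and 6464 to 7256 CPM with PBS, and none of them was at 0. Markers of striatal projection neurons (13 of 14 tested) were at 1.33 in TSP1 replicate 4 alone and at -0.27 to -0.15 elsewhere. Their summed level was 369 to 788 CPM with TSP1 and 362.5 to 377 CPM with PBS, and Isl1 was the one not tested. Myelin markers were at 0.87 in TSP1 replicate 4 and 0.39 in PBS replicate 1, with summed levels of 3244 to 8898 CPM with TSP1 and 4876 to 6159 CPM with PBS. The part of these cell types in the scaffold values was not tested, and in bulk tissue fewer cells of a type cannot be told apart from less RNA per cell. Pan-neuronal markers (14 of 14 tested) spanned only -0.06 to 0.02, and their summed level was 7706 to 8580 CPM with TSP1 and 7903 to 8012 CPM with PBS. Several other lists were lower with TSP1 as groups: fitted values were below 0 for 13 of 14 astrocyte genes (median -0.18), 14 of 14 microglial genes (-0.26), 8 of 9 oligodendrocyte precursor genes (-0.17), 12 of 12 endothelial genes (-0.24) and 22 of 22 ribosomal protein genes (-0.21). Fitted values were also below 0 for 7 of 9 cortical excitatory markers (median -0.08) and 10 of 13 myelin markers (-0.09). They were above 0 for 13 of 13 striatal markers (0.51) and 8 of 14 pan-neuronal markers (0.02), against 51.1% of all genes. The 10 interneuron markers were divided, with 5 fitted values above 0 and 5 below. Those above were Gad1 (0.13), Gad2 (0.14), Slc32a1 (0.04), Dlx1 (0.11) and Cnr1 (0.02). Of these 10, 4 (40%) had an unadjusted p under 0.05, against 5.44% of all genes lower at that p. All 4 were lower with TSP1 (Vip -0.52, Pvalb -0.38, Npy -0.25 and Sst -0.21). The groups did not overlap for Vip, Npy and Sst (30%), against 5.26% of all genes lower without overlap. The summed levels of the groups did not overlap for microglia (541 to 683 CPM with TSP1, 705 to 824 with PBS) or endothelium (366 to 478 and 487 to 588 CPM), and the part of all these lists in the members' values was not tested. With both TSP1 replicate 4 and PBS replicate 1 left out, 4 of the 50 members had an unadjusted p under 0.05 (Cadps2, Rab3c, Unc13c and Cplx2). The share of all genes in that fit was 8.21%. Of the members 0 passed the adjustment, against 0.00577% of all genes.

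**Figure D3:**
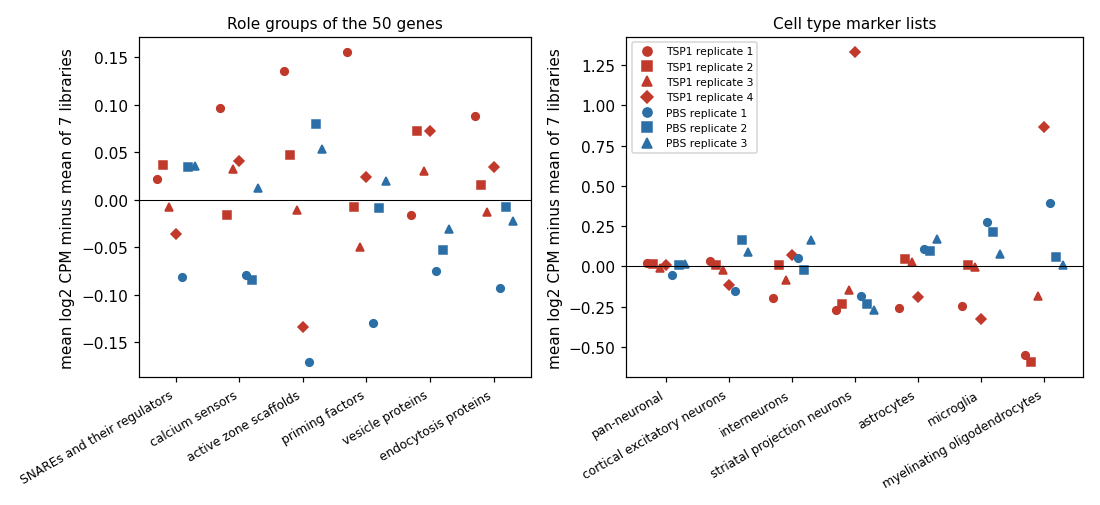
Mean log2 CPM of each list minus its mean over the 7 libraries (y axis), for the 6 role groups (left) and 7 marker lists (right, with a wider axis). In the active zone group TSP1 replicate 4 (-0.13) and PBS replicate 1 (-0.17) are lowest, and only TSP1 replicate 4 stands out in striatal markers (1.33).

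PBS replicate 1 was low in most of the machinery. It held the lowest value of 22 of the 50 members and the highest of 1, and the 50 genes summed to 18270.1 CPM there, against 20270.5 and 20054 CPM in PBS replicates 2 and 3 and 19431 to 20913 CPM in the TSP1 libraries. TSP1 replicate 1, at the other end, held the highest value of 16 members. The summed level of the members thus overlapped between the groups, and without PBS replicate 1 the PBS sums lay inside the range of TSP1.

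Of the priming factors besides Cadps2 and Unc13c, Unc13a encodes Munc13-1, the main priming protein of excitatory forebrain synapses (chromosome 8, 71624417 to 71671757). It was the most abundant per length of the 5 (47.8 CPM per kb) and had 696, 613, 567 and 568 CPM with TSP1 and 528, 625 and 626 CPM with PBS. The groups overlapped, with a log2 fold change of 0.04 (SE 0.087, edgeR FDR = 0.921). Cadps, the CAPS1 gene (chromosome 14, 12372563 to 12823079), had 237, 229, 222 and 228 CPM with TSP1 and 200.01, 221 and 223 CPM with PBS (log2 fold change 0.09, SE 0.062, edgeR FDR = 0.673). PBS replicate 1 was the lowest, and the value was 0.05 without it and 0.02 with the length and GC trend removed. Unc13b, the Munc13-2 gene, was at 103 to 116 CPM in 6 libraries and at 141 CPM in TSP1 replicate 1, a log2 fold change of 0.08 (SE 0.091, edgeR FDR = 0.816) that was -0.01 without that library.

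Of the vesicle proteins, 12 of 14 genes had fitted values above 0 (median 0.06). Rab3a, the main Rab3 of brain (chromosome 8, 70754679 to 70758677) and the most abundant of the 14 per length (187 CPM per kb), had 401, 428, 406 and 431 CPM with TSP1 and 405, 418 and 421 CPM with PBS. Its means of 417 ± 15.6 CPM (SD, n = 4) and 415 ± 8.48 (SD, n = 3) differed by less than the spread within groups (log2 fold change 0.01, 95% interval -0.12 to 0.14, edgeR FDR = 0.985). Syn3, the synapsin of early development (chromosome 10, 86055125 to 86498896), was the least abundant member per length (1.56 CPM per kb). It had 23.9, 18.3, 21.3 and 17.9 CPM with TSP1 and 15.5, 17.6 and 19.1 CPM with PBS, with overlap between the groups (log2 fold change 0.23, SE 0.11, edgeR FDR = 0.555, and 0.15 without TSP1 replicate 1 or without PBS replicate 1). The major synapsins, which hold vesicles in the reserve pool, had 609 ± 39.2 against 589.9 ± 61.6 CPM (Syn1) and 468 ± 28.3 against 458 ± 14.6 CPM (Syn2). Synaptophysin (Syp), an abundant vesicle membrane protein, had 695 ± 31.6 against 665 ± 18.8 CPM.

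A pair of vesicle genes varied with single libraries. Sv2c, an SV2 form abundant in basal ganglia, had 15, 26.7, 17.4 and 40.045 CPM with TSP1 and 22.6, 19.2 and 18.3 CPM with PBS. TSP1 replicate 4, the library with high striatal markers, was the highest, and the log2 fold change of 0.31 (SE 0.38, edgeR FDR = 0.852) was -0.02 without it. The part of the striatal markers in the Sv2c values was not tested. Synpr, a synaptophysin relative of some interneurons and excitatory cells, had 45.6, 67.6, 66.4 and 64.7 CPM with TSP1 and 61.7, 49.2 and 53.4 CPM with PBS (log2 fold change 0.16, SE 0.14, edgeR FDR = 0.768). TSP1 replicate 1 was the lowest of the 7 libraries there, in contrast to its high values in most other members. It was also lowest in the interneuron markers, at -0.19 log2 units, where the other libraries were at -0.08 to 0.16 and all 10 markers were tested. The summed level of the interneuron markers was 697 to 900.5 CPM with TSP1 and 767 to 853 CPM with PBS, and their part in the Synpr values was not tested.

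All 4 endocytosis genes had fitted values above 0 (median 0.08), none with an unadjusted p under 0.05, and all 4 intervals lay inside a 1.25-fold change. Dnm1, the neuronal dynamin that pinches vesicles off (chromosome 2, 32308471 to 32353338), had 1359, 1279, 1206 and 1236 CPM with TSP1 and 1158, 1336 and 1217 CPM with PBS (log2 fold change 0.04, SE 0.075, edgeR FDR = 0.919). Synj1, the phosphatase synaptojanin that sheds the clathrin coat (chromosome 16, 90936092 to 91011308), had 432, 394, 389.5 and 411 CPM with TSP1 and 365, 393 and 379.9 CPM with PBS (log2 fold change 0.10, SE 0.064, edgeR FDR = 0.665). Sh3gl2, the endophilin that recruits synaptojanin (chromosome 4, 85205126 to 85639195), had 317, 294, 302 and 291 CPM with TSP1 and 272, 284 and 296 CPM with PBS (log2 fold change 0.09, SE 0.062, edgeR FDR = 0.705). In Synj1 and Sh3gl2 the upper PBS libraries lay among the TSP1 libraries, and their values were 0.06 and 0.04 with the length and GC trend removed. Amph, the amphiphysin that links dynamin to clathrin (chromosome 13, 18948205 to 19150921), had 202, 207, 201 and 219 CPM with TSP1 and 198, 193 and 202 CPM with PBS (log2 fold change 0.06, SE 0.06, edgeR FDR = 0.778).

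Per kb of exon, the 50 genes spanned from 1.56 (Syn3) to 292 CPM (Snap25). After Snap25 came Vamp2 (242 CPM per kb), Dnm1 (239), Cplx2 (218), Cplx1 (197), Rab3a (187), Syn1 (182) and Syt1 (162), all higher than 99% of the genes tested. Snap25 lay above the range of each of the others over the 7 libraries. The ranges of the other 7 over the libraries overlapped from each gene to the next. Within every library, however, Cplx1 lay above Rab3a and Syn1 above Syt1, while the other neighbours changed order between libraries. The scaffolds and priming factors lay lower, from Bsn (50.1 CPM per kb) and Rims1 (49.9) down to Unc13c (3.89) and Erc1 (3.4). Exon length here counts every annotated exon of a gene, so genes with many long isoforms are set low on this scale.

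**Figure D4:**
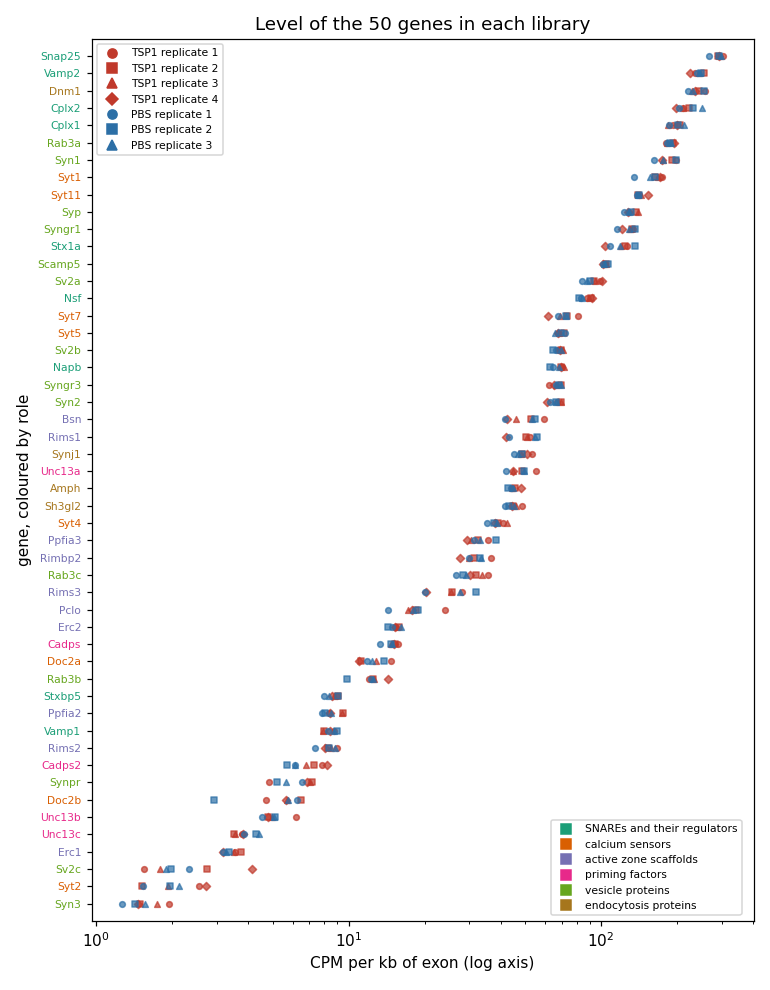
CPM per kb of exon (x axis, log scale) of the 50 genes in each of the 7 libraries, ordered by mean level, with gene names coloured by role. Most rows are narrow, and Doc2b, Sv2c and Syt2 among the rare genes spread widest.

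Ratios of related genes within a library do not depend on how libraries are scaled, and 15 pairs were compared without a test. The groups overlapped for 13 of the 15 pairs. For the other 2, no share over further gene pairs was computed, while the groups did not overlap for 10.1% of all single genes. Vamp1 was at 0.0346 ± 0.00316 of Vamp2 per length over the 4 TSP1 libraries and 0.0355 ± 0.000918 over the 3 PBS libraries (SD), Rims1 at 1.97 ± 0.0889 and 1.96 ± 0.203 times Rims3, and Syn1 at 2.78 ± 0.183 and 2.74 ± 0.222 times Syn2. Cplx1 was at 0.927 ± 0.0547 and 0.877 ± 0.031 of Cplx2, and Unc13a at 9.36 ± 0.551 and 9.59 ± 0.31 times Unc13b. Among the overlapping pairs the widest gaps between group means were those of Doc2a/Doc2b (2.26 ± 0.614 and 2.92 ± 1.56), Cadps/Cadps2 (2.03 ± 0.142 and 2.39 ± 0.211) and Ppfia2/Ppfia3 (0.28 ± 0.0304 and 0.239 ± 0.0245). Their mean log2 ratios differed by -0.28, -0.23 and 0.23, as much as or more than those of the 2 pairs without overlap, Bsn/Pclo (-0.18) and Rab3a/Rab3c (-0.22). Bsn was at 2.45, 2.86, 2.69 and 2.38 times Pclo per length with TSP1 and at 2.92, 2.93 and 2.96 times with PBS. Rab3a was at 5.05, 6.02, 5.4 and 6.4 times Rab3c with TSP1 and 6.85, 6.64 and 6.46 times with PBS. In each of the 2 pairs the longer, GC-poorer gene was the relatively higher with TSP1, as it was in Doc2a/Doc2b and Ppfia2/Ppfia3. In Cadps/Cadps2 it was the shorter, GC-richer gene, Cadps2. The part of length and GC content in these ratios was not tested. The PBS libraries, which spread widely in Bsn and in Pclo alone, lay between 2.92 and 2.96 in their ratio.

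**Figure D5:**
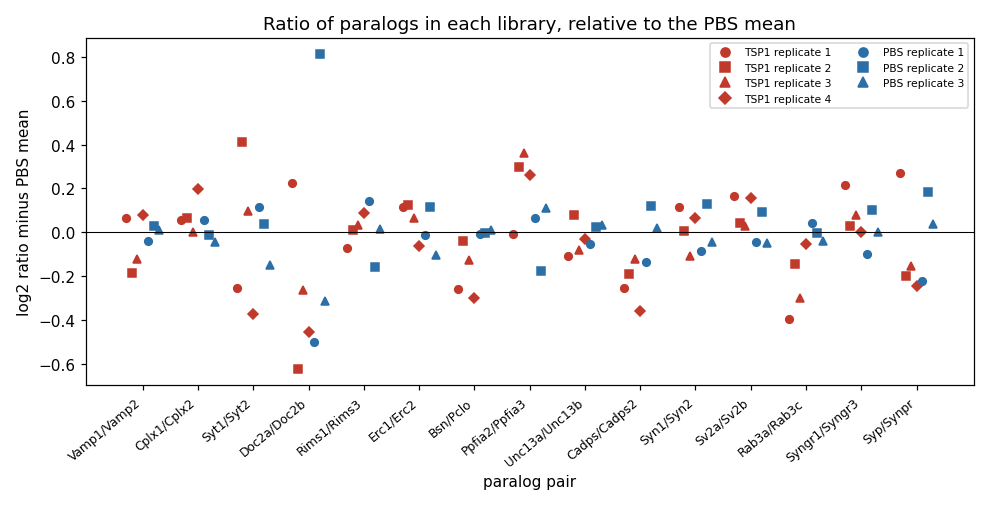
Log2 ratio of 15 gene pairs in each library minus the mean log2 ratio of the PBS libraries (y axis). All TSP1 points lie below all PBS points for Bsn/Pclo and Rab3a/Rab3c, and the widest spread is that of Doc2a/Doc2b, where PBS replicate 2 is highest.

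Further presynaptic genes, 70 in number, were counted from lists of known function. All 70 were tested, with a median log2 fold change of 0.01. In edgeR's quasi-likelihood test 0 passed the adjustment over all genes, and 6 (8.57%) had an unadjusted p under 0.05, against 9.65% of all genes. Of these, 4 were higher with TSP1 (4.21% of all genes) and 2 lower (5.44%). DESeq2 (0.505% of all genes) and the exact test (0.604%) each called 1 of the 70, Slc17a6, and limma-voom called 0 (0%). At an unadjusted p under 0.05, DESeq2 had 8 of the 70 (11.4%, against 7.7% of all genes). The exact test had 7 (10%, against 9.12%) and limma-voom 8 (11.4%, against 9.64%). Of 31 other release genes, 17 had fitted values above 0 and 14 below. The smallest p among them were those of Syt9, another fast sensor (11.4 ± 1.64 against 8.19 ± 1.63 CPM, log2 fold change 0.47, SE 0.15, edgeR FDR = 0.343), and Rph3a, the Rab3 effector rabphilin (519.6 ± 44.1 against 608 ± 55.3 CPM, log2 fold change -0.23, SE 0.082, edgeR FDR = 0.401). Of 15 other vesicle membrane genes, transporters and proton pump subunits included, 9 were above 0. The vesicular glutamate transporter gene Slc17a6 had the smallest p. It was at 14.7, 13.1, 12.9 and 15.1 CPM with TSP1 and 9.56, 8.46 and 10.3 CPM with PBS, without overlap (log2 fold change 0.56, SE 0.11, edgeR FDR = 0.123). DESeq2 and the exact test put it past the threshold (adjusted p = 0.0213 and 0.00638) and limma-voom did not (0.169), while the more abundant Slc17a7 was at 1473 ± 129.8 CPM with TSP1 and 1479.6 ± 91.2 CPM with PBS. The pump subunit gene Atp6v1a was next, at 439 ± 10.8 against 416 ± 1.36 CPM, with a log2 fold change of 0.08 (SE 0.059, edgeR FDR = 0.72). Of 24 other endocytosis genes, 11 were above 0 and 13 below, with the smallest p for the clathrin adaptor regulator Sgip1 (156 ± 4.66 against 140.3 ± 2.81 CPM, log2 fold change 0.15, SE 0.058, edgeR FDR = 0.434) and the adaptor subunit Ap2s1 (98.3 ± 8.2 against 109.9 ± 8.54 CPM, log2 fold change -0.16, SE 0.077, edgeR FDR = 0.532).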

How the data were processed

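Counts per gene in 7 libraries, 1 mouse each per the series' design text, were read from the deposited table and joined to samples through the number that opens each description. Libraries were made with a SMARTER mRNA-Seq kit from 1.3 µg of total RNA, per the labels' protocols. The deposited values are raw read counts, as judged from whole numbers with unequal totals. GRCm38 and mm10 are named in the submitters' processing notes, while the sources used here name no aligner, counter or strand setting, so overlapping and antisense genes may share reads. Totals were 15090336 to 20755167 counts per library, with means of 17460000 ± 1616000 in the 4 TSP1 and 18270000 ± 2169000 in the 3 PBS libraries (exact permutation test over 35 splits, two-sided, p = 0.6). Library numbers (1 to 4 for TSP1, 8, 11 and 12 for PBS) do not interleave, so processing order and treatment cannot be told apart. Whether mice shared litters or cages is not given, so p-values measure the spread between these samples.

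Of 25467 gene identifiers 25375 matched GENCODE M21 for symbols, exon length and GC content of the longest transcript. Counts were tested in edgeR 4.0.16 (R 4.3.3) with filterByExpr, TMM and a robust quasi-likelihood fit of group, two-sided, adjusted over all 17211 genes, with SE derived from the fold change and its F statistic. Alternatives were RLE size factors, DESeq2 1.42.0, edgeR's exact test, limma-voom (limma 3.58.1), no low-count filter, a minimum of 5 CPM in 3 libraries, a block for the replicate number, removal of each library's trend with length and GC (splines with 4 degrees of freedom each), and leaving out each library. Leaving out TSP1 replicate 4 and PBS replicate 1 together was added after the data were seen. List means per library use log2 CPM with a prior count of 2. The tests were tested on simulated data.

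The members and lists were chosen with earlier results of these data known. Values in every library are given for the 3 members of smallest p and the most abundant per length in each role, and group means or library values for the 2 genes of smallest p in each further list. Vamp2, Stx1a, Doc2b, Rims1, Rims3, Unc13b, Sv2c and Synpr were chosen after their values were seen.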

Additional observations from a re-analysis of the deposited data

Results flagged for a closer look

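In the TSP1 group, 3 of the 50 members had 1 library far from the other 3 by Dixon's 95% criterion, where chance alone flags about 5% of such groups. Rims1 was low in TSP1 replicate 4, at 309 CPM against 371 to 385 CPM in the other TSP1 libraries, and PBS replicate 1 (318 CPM) was about as low. Unc13b was high in TSP1 replicate 1, at 141 CPM against 109 to 113 CPM in the other TSP1 libraries and 103 to 116 CPM with PBS. Synpr was low in TSP1 replicate 1, at 45.6 CPM against 64.7 to 67.6 CPM in the other TSP1 libraries and 49.2 to 61.7 CPM with PBS.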

How the results depend on the processing

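The count of members past the adjusted threshold was 0 in edgeR's quasi-likelihood test under all its alternatives, and 1 (Cadps2) in DESeq2 and in the exact test. Over all genes the count was 0, but 88 in DESeq2, 104 in the exact test, 19 without a low-count filter, 0 to 9 with 1 library left out (9 without PBS replicate 3) and 1 without both TSP1 replicate 4 and PBS replicate 1. Members at an unadjusted p under 0.05 numbered 4, but 7 in DESeq2 (all genes: 7.7%) and 3 to 7 with 1 library left out (all genes: 6.71 to 10.6%), with 7 without TSP1 replicate 1 (all genes: 8.65%). Members with fitted values above 0 numbered 28 to 41 over all settings, and their median log2 fold change ranged from 0.02 to 0.08. With 1 library left out, the log2 fold change kept its sign for 28 of the 50 members and not for 22, 12 of them among the genes described by library. Those 12 ranged from -0.006 to 0.076 for Snap25, -0.057 to 0.006 for Vamp2, -0.098 to 0.074 for Stx1a, -0.082 to 0.381 for Doc2b, -0.110 to 0.085 for Bsn, -0.178 to 0.005 for Rims1, -0.263 to 0.067 for Rims3, -0.035 to 0.088 for Unc13a, -0.012 to 0.124 for Unc13b, -0.011 to 0.026 for Rab3a, -0.016 to 0.484 for Sv2c and -0.008 to 0.102 for Dnm1. The other 10 had values of at most 0.05 in size with all libraries and ranged from -0.115 to 0.136. The sign also turned with the length and GC trend removed for Snap25 (-0.005), Bsn (-0.011), Stx1a (0.033) and Unc13b (-0.021), and without TSP1 replicate 4 and PBS replicate 1 for Syt2 (-0.038), Bsn (-0.033) and Rab3a (-0.023). The cause was not tested. The labels do not say whether same-numbered libraries of the groups belong together. Their deviations from the group means correlated at -0.261, -0.0331 and 0.0103 over genes. With so few libraries per group, these values cannot decide it. With the replicate block, in which TSP1 replicate 4 has no partner, 0 members were called and 41 were above 0, and the sign turned for Rab3a (-0.011), Vamp2 (0.002), Stx1a (0.040), Rims1 (0.006), Rims3 (0.015) and Sv2c (-0.051). With 4 and 3 libraries, the median SE was 0.072 log2 units for members and 0.11 for all genes.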
